A study of Xenopus laevis with 6 samples.

Results

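Notch signalling genes were followed in whole embryos of the allotetraploid frog Xenopus laevis, which carries most genes as L and S homeologs. Members were the rows of the count table whose names match the ligand genes dll, dlc and jag, the receptor genes notch1 to notch4, the fringe genes, mib, dtx, numb, rbpj, maml and nrarp, or the hes and hey families. The rule matched 67 of 45090 rows. The genes nrarp, mfng and notch2 to notch4 are not analysed here. The rows dlc1.L and dlc1.S matched by spelling alone, since dlc1 does not encode a Notch ligand, and they are kept apart from the ligands (log2 fold changes, half-size over intact, of 0.16 ± 0.11 and -0.07 ± 0.13, neither called). Of the 67 rows, 58 passed the filter on low counts and were tested. The other 9 averaged at most 0.341 CPM (counts over the library size in units of 1e6, after TMM scaling), and 1 of them, dtx3.S, had no count in any library.

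The half-size embryos were wild-type embryos divided at the stage of 2 blastomeres, each cell then growing into a small embryo. The intact embryos were their undivided wild-type siblings, not treated. Both groups were collected at late gastrula, Nieuwkoop and Faber stage 12.5, with 3 libraries each. The series text calls the groups siblings, and libraries with the same replicate number, which deviated together from their group means, were taken as sibling pairs. The number of embryos behind a library is not stated there. The half-size libraries held 20205384 to 26097821 counts and the intact libraries 20069300 to 29284864.

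Notch is a receptor cut on contact with a ligand of the Delta or Jagged type on a neighbouring cell. The freed intracellular part enters the nucleus, joins RBPJ and a Mastermind-like protein, and switches on Hes and Hey genes, which encode basic helix-loop-helix repressors. In frog gastrulae and neurulae this relay limits how many cells become primary neurons or multiciliated cells, and takes part in the segmentation of the paraxial mesoderm. Many Hes genes are also controlled by inputs other than Notch, and Hes6 proteins are known to counteract other Hes proteins.

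Most Notch pathway rows that differed between half-size and intact embryos were hes rows, and all but 1 of those were lower in half-size embryos. In the fit that pairs siblings, 12 member rows fell and 2 rose of 58 tested, against 5.92% of all 21673 genes called in either direction (3.93% lower and 1.99% higher). Of the 12 falls 11 were hes rows, in a family with 29 rows tested, and they were 1.38-fold to 2.19-fold lower in half-size embryos. The 2 rises were those of the receptor row notch1.L and of hes1.L. Of the 7 ligand rows tested, 0 were called by paired edgeR or paired DESeq2, with 0 at an unadjusted p under 0.05 in either.

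These calls need the sibling pairs in the model. The edgeR fit without them, planned as the main fit, passed 0 of 21673 genes (0.0%) and 0 members. It left 12 members at an unadjusted p under 0.05, against 3.58% of all genes. DESeq2 with pairing called 14 members, 11 lower and 3 higher, against 5.2% of all genes. Of these 13 were shared with edgeR, numbl.L was a further rise, and dtx1.S had no adjusted p. Without pairing DESeq2 called 51 genes (0.235%) and 0 members. In the paired fit 11 members were called without replicate 1, 12 without replicate 2 and 4 without replicate 3, the last being hes10.L.g, hes3.S, hes5.1.S and hes9-1.L.g. These 4 kept their call in every paired alternative run. Calls over all genes, counted in the last section, were also fewest without replicate 3, so the drop is not particular to the members. The shares over all genes in these settings are not given here. Unless stated otherwise, "rose" and "fell" mean an adjusted p under 0.05 over all genes tested in the paired edgeR fit, and log2 fold changes are half-size over intact from that fit, with their SE. Embryos were sequenced whole, so fewer cells of a type and less RNA per cell cannot be told apart.

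**Figure D1:**
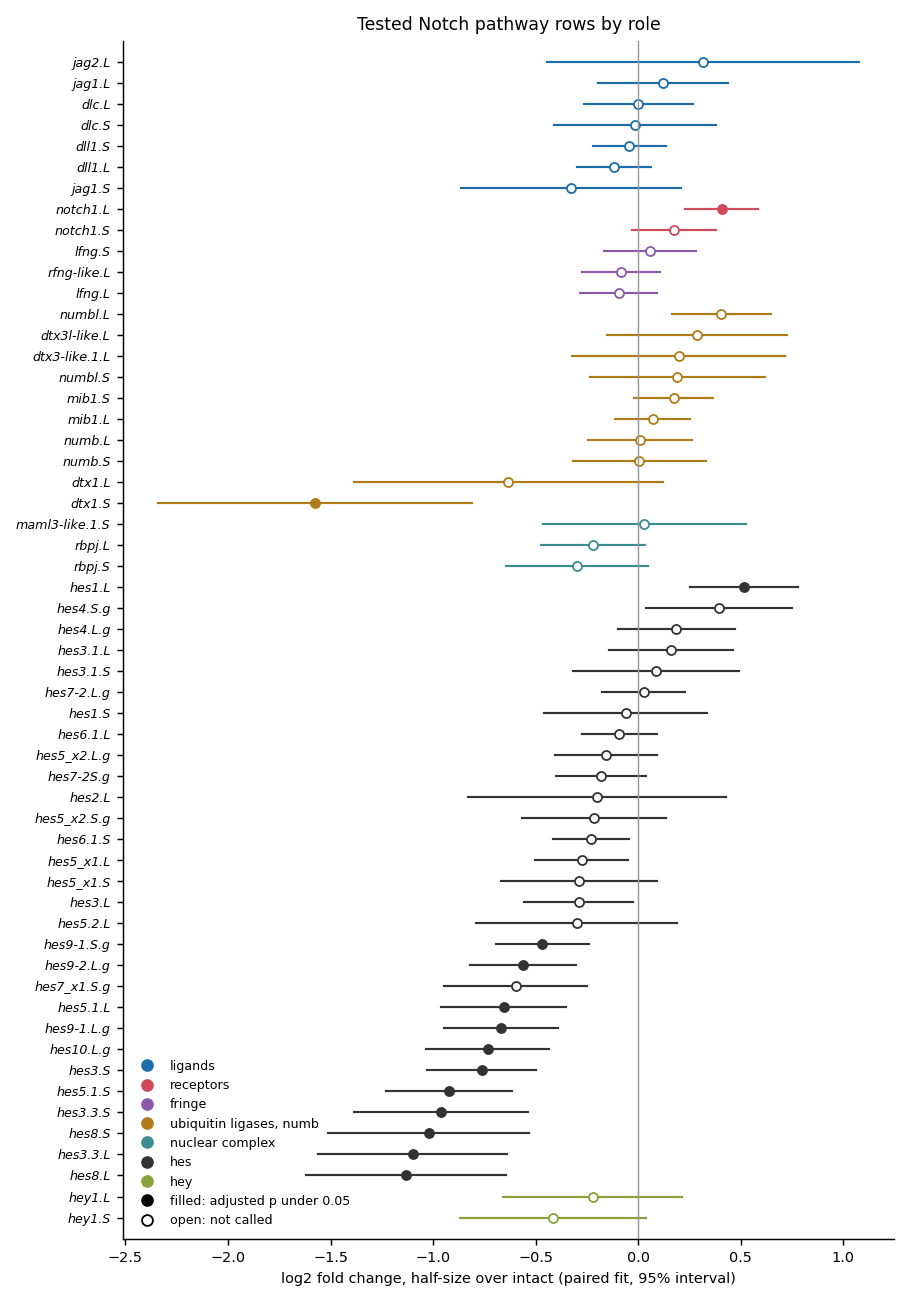
Log2 fold change, half-size over intact, of the 56 tested Notch pathway rows by role (points; bars are 95% intervals from the paired edgeR fit; filled points were called). Ligand, fringe, mib1 and numb rows lie between -0.33 and 0.32 and are not called. The row numbl.L lies at 0.40 with an interval above 0, also without a call. Between -0.47 and -1.13 lie 11 called hes rows, and also hes7_x1.S.g, at -0.60, which is not called.

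Among the ligands, dll1, the main Delta gene of the early nervous system, was close to level. The row dll1.L had 77.0, 99.2 and 92.8 CPM in half-size replicates 1, 2 and 3, against 88.1, 101 and 102 CPM in intact replicates 1, 2 and 3. The row dll1.S had 85.4, 93.6 and 88.7 CPM in half-size libraries, against 87.8, 92.1 and 96.0 CPM in intact libraries. For both rows the groups overlapped, and the 95% intervals of the log2 fold change ran from -0.30 to 0.06 for dll1.L and from -0.22 to 0.14 for dll1.S.

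The row dlc.L, listed in RefSeq under the synonym X-Delta-2 and known from the presomitic mesoderm, had 127, 180 and 152 CPM in half-size libraries, against 161, 137 and 158 CPM in intact libraries. Its pairs disagreed, with a lower half-size library in pairs 1 and 3 and a higher one in pair 2, and its log2 fold change was -0.00 ± 0.12. Its homeolog dlc.S followed the replicate number: both libraries of replicate 2, at 10.6 CPM (half-size) and 8.79 CPM (intact), lay above the other 4, which had 2.18 and 3.70 CPM in half-size and 2.66 and 4.14 CPM in intact embryos. The Jagged genes were not called either, with log2 fold changes of 0.12 ± 0.14 for jag1.L, -0.33 ± 0.24 for jag1.S and 0.32 ± 0.35 for jag2.L (edgeR adjusted p = 0.675, 0.468 and 0.647).

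The receptor row notch1.L rose. It had 99.5, 172 and 142 CPM in half-size libraries, against 81.1, 128 and 100.3 CPM in intact libraries. Each half-size library was above its intact sibling, although the groups overlapped, since the replicates differed more than the groups did. The log2 fold change was 0.41 ± 0.08 (edgeR adjusted p = 0.0164), and the call did not hold when replicate 2 (adjusted p = 0.110) or replicate 3 (adjusted p = 0.0904) was left out. The homeolog notch1.S had 97.5, 158 and 97.6 CPM in half-size libraries, against 77.8, 131 and 103 CPM in intact libraries. Its half-size library was the higher in 2 of the 3 pairs, with a log2 fold change of 0.17 ± 0.09 that was not called (edgeR adjusted p = 0.308).

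The fringe enzymes add sugars to Notch and shift its choice of ligand. Of 3 rows tested, 0 were called by paired edgeR or paired DESeq2, with 0 at an unadjusted p under 0.05 in either. The row lfng.L had 93.6, 88.7 and 99.3 CPM in half-size libraries, against 110, 87.7 and 104 CPM in intact libraries. The row lfng.S had 76.7, 76.0 and 80.3 CPM in half-size libraries, against 88.6, 69.9 and 67.0 CPM in intact libraries. Groups overlapped for both, and log2 fold changes were -0.10 ± 0.08 for lfng.L, 0.06 ± 0.10 for lfng.S and -0.09 ± 0.09 for rfng-like.L.

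Of the genes that act on ligand or receptor turnover, 1 of 10 rows tested was called, against 5.92% of all genes. This was dtx1.S, one homeolog of Deltex, a ubiquitin ligase that binds the Notch intracellular domain. It fell to 0.342, 0.351 and 0.453 CPM in half-size libraries, against 0.748, 1.08 and 1.68 CPM in intact libraries. The groups did not overlap, but the values rest on 7 to 12 counts in half-size and 18 to 34 counts in intact libraries. The log2 fold change was -1.58 ± 0.35 (edgeR adjusted p = 0.0254). DESeq2 with pairing gave it no adjusted p, and edgeR's adjusted p was 0.0543 when replicate 2 was left out and 0.172 when replicate 3 was.

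Mind bomb, the ligase that activates ligands by driving their endocytosis, was not called, with log2 fold changes of 0.07 ± 0.08 for mib1.L and 0.17 ± 0.09 for mib1.S. Numb, an endocytic adaptor that restrains Notch, had log2 fold changes of 0.01 ± 0.11 for numb.L and 0.01 ± 0.15 for numb.S. Its relative numbl.L had 38.1, 27.6 and 31.0 CPM in half-size libraries, against 30.8, 18.3 and 24.8 CPM in intact libraries. Each half-size library of numbl.L was above its sibling, with a log2 fold change of 0.40 ± 0.11 that missed the threshold in the paired edgeR fit (adjusted p = 0.0540). It was called as higher by paired DESeq2 (adjusted p = 0.0455), and by paired edgeR with no filter (adjusted p = 0.0138) or without replicate 1 (adjusted p = 0.0484).

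The remaining rows of this group that were tested, dtx1.L, dtx3-like.1.L, dtx3l-like.L and numbl.S, had log2 fold changes between -0.63 and 0.28 and were not called.

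Of 3 tested rows for nuclear partners, 0 were called by paired edgeR or paired DESeq2, with 0 at an unadjusted p under 0.05 in either. The rows rbpj.L and rbpj.S encode the DNA-binding protein through which Notch acts. The row rbpj.L had 13.6, 16.6 and 15.3 CPM in half-size libraries, against 15.0, 19.1 and 19.1 CPM in intact libraries. The row rbpj.S had 6.33, 7.96 and 6.34 CPM in half-size libraries, against 7.57, 8.17 and 9.66 CPM in intact libraries. All 3 half-size libraries lay below their siblings for both rows, with log2 fold changes of -0.22 ± 0.11 and -0.30 ± 0.16 (edgeR adjusted p = 0.288 and 0.295). For maml3-like.1.S, the only Mastermind-like row tested, it was 0.03 ± 0.22.

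**Figure D2:**
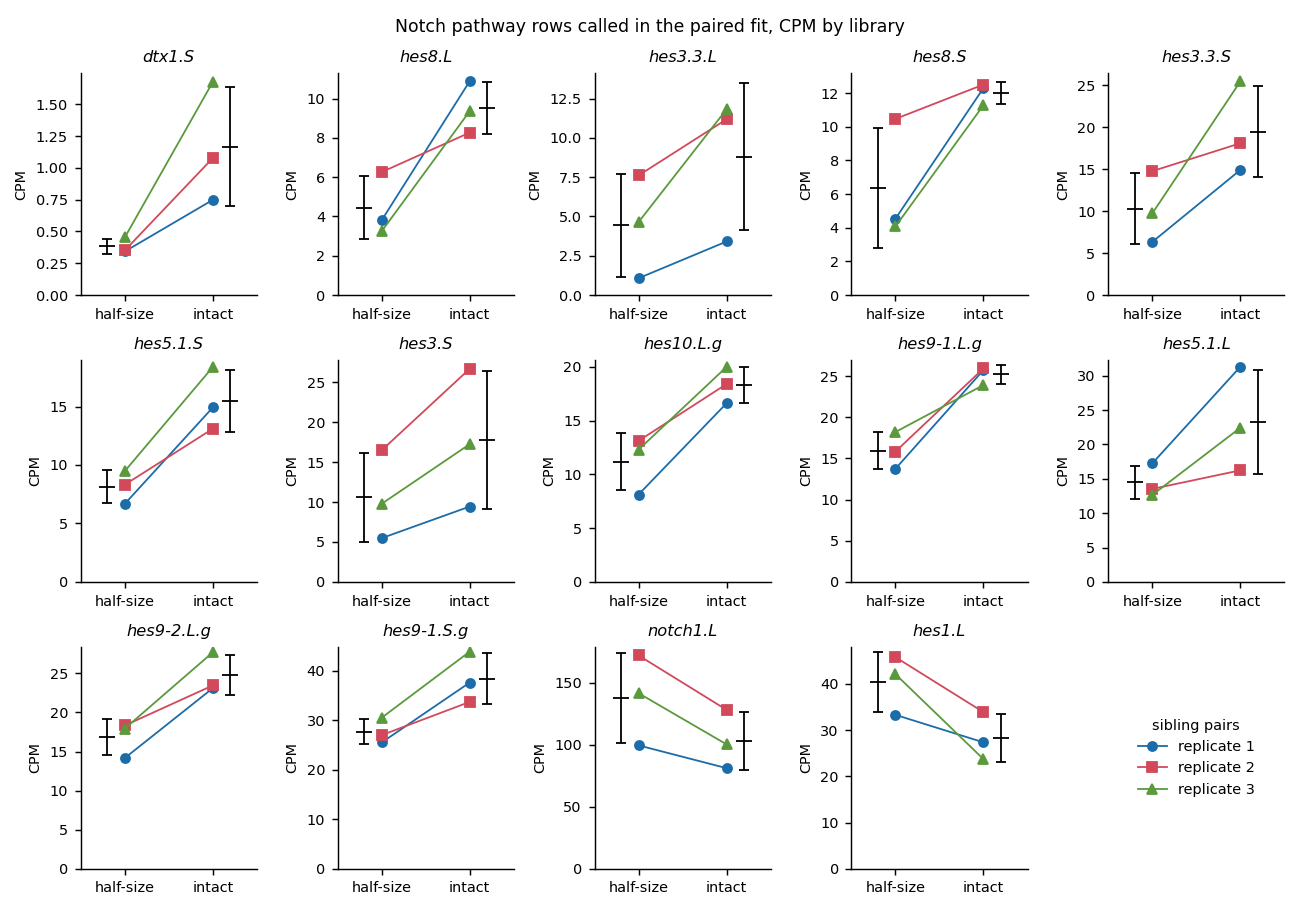
CPM by library of the 14 Notch pathway rows called in the paired edgeR fit (vertical axes start at 0; lines join siblings; black marks are mean ± SD, n = 3 libraries per group). In 12 rows every half-size library lies below its intact sibling, and in notch1.L and hes1.L above it.

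The hes rows with the deepest falls were hes8 and hes3.3. The row hes8.L had 3.81, 6.26 and 3.25 CPM in half-size libraries, against 10.9, 8.27 and 9.36 CPM in intact libraries. The row hes8.S had 4.54, 10.5 and 4.08 CPM in half-size libraries, against 12.3, 12.5 and 11.3 CPM in intact libraries. For both homeologs the groups did not overlap, and half-size replicate 2 stood nearest to the intact range. The log2 fold changes were -1.13 ± 0.22 for hes8.L and -1.02 ± 0.22 for hes8.S (edgeR adjusted p = 0.0153 and 0.0241). The call of hes8.L was lost without replicate 3 (edgeR adjusted p = 0.0837). That of hes8.S was lost without replicate 1 (edgeR adjusted p = 0.0603) and without replicate 3 (edgeR adjusted p = 0.125).

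The rows hes3.3.L and hes3.3.S belong to a gene of which the L homeolog is listed in RefSeq as hes5.3.L, with the synonym esr2. The row hes3.3.L had 1.07, 7.61 and 4.64 CPM in half-size libraries, against 3.41, 11.2 and 11.8 CPM in intact libraries. Here the groups overlapped, because replicate 1 was low in both, while each half-size library stayed below its sibling (log2 fold change -1.10 ± 0.21, edgeR adjusted p = 0.0137). The row hes3.3.S had 6.33, 14.8 and 9.74 CPM in half-size libraries, against 14.9, 18.1 and 25.5 CPM in intact libraries. These groups touched without overlapping, as half-size replicate 2 and intact replicate 1 were nearly level (log2 fold change -0.96 ± 0.19, edgeR adjusted p = 0.0166). Without replicate 3 both calls were lost (edgeR adjusted p = 0.0959 for hes3.3.L and 0.103 for hes3.3.S).

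The gene hes5.1, known in the frog as ESR1 and as a Notch target in the neural plate, fell in both homeologs. The row hes5.1.S had 6.68, 8.31 and 9.48 CPM in half-size libraries, against 14.9, 13.1 and 18.4 CPM in intact libraries. All 3 half-size libraries were below all 3 intact ones, and the log2 fold change was -0.92 ± 0.14 (edgeR adjusted p = 0.00514). The row hes5.1.L had 17.2, 13.5 and 12.6 CPM in half-size libraries, against 31.3, 16.2 and 22.4 CPM in intact libraries. Half-size replicate 1 was above intact replicate 2, so these groups overlapped, and the log2 fold change was -0.66 ± 0.14 (edgeR adjusted p = 0.0208). The call of hes5.1.L was lost without replicate 1 (edgeR adjusted p = 0.0683) and without replicate 3 (edgeR adjusted p = 0.106).

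The row hes3.S had 5.48, 16.5 and 9.78 CPM in half-size libraries, against 9.44, 26.7 and 17.3 CPM in intact libraries. The replicates ran in the same order in both groups, and the pair differences were close to each other, at -0.73, -0.68 and -0.79 log2 units (pseudocount 0.5 CPM). Its log2 fold change was -0.76 ± 0.12 (edgeR adjusted p = 0.00615). The homeolog hes3.L, at 13.6, 22.9 and 18.1 CPM in half-size libraries, against 19.6, 27.1 and 19.5 CPM in intact libraries, was not called (log2 fold change -0.29 ± 0.12, edgeR adjusted p = 0.180).

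The remaining falls were those of hes10.L.g, hes9-1.L.g, hes9-1.S.g and hes9-2.L.g, the ending .g being the table's own. The row hes9-1.L.g had 13.7, 15.8 and 18.2 CPM in half-size libraries, against 25.7, 25.9 and 23.9 CPM in intact libraries. The row hes10.L.g had 8.13, 13.1 and 12.3 CPM in half-size libraries, against 16.6, 18.4 and 20.01 CPM in intact libraries. The row hes9-1.S.g had 25.5, 27.0 and 30.5 CPM in half-size libraries, against 37.6, 33.7 and 43.9 CPM in intact libraries. The half-size values stayed below the intact range throughout. The row hes9-2.L.g had 14.2, 18.3 and 17.9 CPM in half-size libraries, against 23.1, 23.5 and 27.7 CPM in intact libraries. Groups did not overlap in any of these 4 rows. The log2 fold changes were -0.73 ± 0.14 for hes10.L.g, -0.67 ± 0.13 for hes9-1.L.g, -0.47 ± 0.10 for hes9-1.S.g and -0.56 ± 0.12 for hes9-2.L.g (edgeR adjusted p = 0.0121, 0.0131, 0.0248 and 0.0195). Without replicate 1 the calls of hes9-1.S.g and hes9-2.L.g were lost (edgeR adjusted p = 0.0550 and 0.0517). Both were also lost without replicate 3 (edgeR adjusted p = 0.108 and 0.0907).

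A single hes row rose. This was hes1.L, the frog hairy1 gene, which had 33.3, 45.8 and 42.1 CPM in half-size libraries, against 27.4, 33.9 and 23.7 CPM in intact libraries. Each half-size library was above its sibling, while the groups overlapped by a narrow margin (33.3 CPM in half-size replicate 1 against 33.9 CPM in intact replicate 2). The log2 fold change was 0.51 ± 0.12 (edgeR adjusted p = 0.0314), a call lost without replicate 2 (adjusted p = 0.0597) and without replicate 3 (adjusted p = 0.163). The homeolog hes1.S had 3.89, 11.2 and 5.89 CPM in half-size libraries, against 5.82, 10.3 and 5.08 CPM in intact libraries, with a log2 fold change of -0.06 ± 0.18.

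Of the 29 hes rows tested, 17 were not called, with log2 fold changes between -0.60 and 0.39. The frog hairy2 gene, hes4, known for its roles in the neural crest and the dorsal midline, was one of them. The row hes4.S.g had 17.2, 17.2 and 23.9 CPM in half-size libraries, against 15.9, 15.6 and 12.5 CPM in intact libraries. These groups did not overlap, and most of the difference came from pair 3 (log2 fold change 0.39 ± 0.16, edgeR adjusted p = 0.177), and with no filter it was called as higher (adjusted p = 0.0411). The row hes4.L.g overlapped between groups, with a log2 fold change of 0.19 ± 0.13.

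The rows of hes6.1, the Hes gene that promotes neurogenesis, were not called and followed the replicate number. The row hes6.1.L had 83.9, 148 and 120 CPM in half-size libraries, against 98.4, 152 and 121 CPM in intact libraries. For hes6.1.S the values were 92.5, 143 and 122 CPM in half-size libraries, against 121, 158 and 136 CPM in intact libraries. Each half-size library was below its sibling for both rows. The 95% interval of the log2 fold change of hes6.1.S ran from -0.41 to -0.04. The log2 fold changes were -0.09 ± 0.08 for hes6.1.L and -0.23 ± 0.08 for hes6.1.S (edgeR adjusted p = 0.562 and 0.134).

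Other rows named for hes5 and hes7 were mostly level or lower without a call. The row hes5_x1.L had 25.6, 25.4 and 29.1 CPM in half-size libraries, against 33.4, 29.4 and 34.1 CPM in intact libraries. Those ranges did not overlap, yet the log2 fold change of -0.28 ± 0.10 was not called (edgeR adjusted p = 0.142). The row hes7_x1.S.g, also without overlap, came nearest to a call among the hes rows that missed it (log2 fold change -0.60 ± 0.16, edgeR adjusted p = 0.0514). It was called as lower in the paired edgeR fits with no filter (adjusted p = 0.0109) and without replicate 2 (adjusted p = 0.0343). The log2 fold changes were -0.16 ± 0.11 for hes5_x2.L.g, -0.22 ± 0.16 for hes5_x2.S.g, 0.03 ± 0.09 for hes7-2.L.g and -0.18 ± 0.10 for hes7-2S.g. Those of hes5_x1.S, hes5.2.L and hes2.L lay between -0.30 and -0.20.

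The row hes3.1.L is listed in RefSeq as hes5.10.L with the synonym ESR6e, a gene known from the outer layer of the frog ectoderm. It had 86.0, 62.2 and 49.3 CPM in half-size libraries, against 76.6, 41.5 and 59.6 CPM in intact libraries, and was not called (log2 fold change 0.16 ± 0.14). The row hes3.1.S had a log2 fold change of 0.09 ± 0.18. In the RefSeq assembly Xenopus_laevis_v10.1, hes5.3.L to hes5.10.L are 8 neighbouring genes on chromosome 7L. The rows hes3.3.L, which fell, and hes3.1.L, which was not called, are thus at opposite ends of that run, and the difference between them was not tested. Genes this alike may share reads, which leaves the split of counts among the hes rows uncertain.

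The hey genes form a related repressor family. The row hey1.L had 5.22, 5.11 and 4.68 CPM in half-size libraries, against 4.07, 7.30 and 6.51 CPM in intact libraries. The row hey1.S had 4.96, 3.16 and 6.68 CPM in half-size libraries, against 4.49, 6.15 and 9.17 CPM in intact libraries. Groups overlapped for both, and neither was called (log2 fold changes -0.22 ± 0.20 and -0.42 ± 0.21, edgeR adjusted p = 0.562 and 0.261).

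Summed over the family, the hes rows reached 733, 893 and 818 CPM in half-size replicates 1, 2 and 3, against 902, 920 and 921 CPM in intact replicates 1, 2 and 3. The largest half-size sum was below the smallest intact sum, by the margin between 893 and 902 CPM. The median log2 fold change of the 29 tested hes rows was -0.29, and that of all genes tested 0.00. The other 27 tested rows, dlc1 left out, had a median of 0.01.

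Groups did not overlap in 12 of the 58 member rows tested, 11 with half-size below and 1 above, against 9.04% of all genes (4.9% below and 4.14% above). Half-size libraries were below their siblings in all 3 pairs for 24 member rows, of which 19 were hes rows, against 22.6% of all genes. They were above in all 3 pairs for 6 rows, against 21.7% of all genes. In 10 of the 11 hes rows that fell, the difference was smallest in pair 2. The matching share among all genes that fell was not computed.

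**Figure D3:**
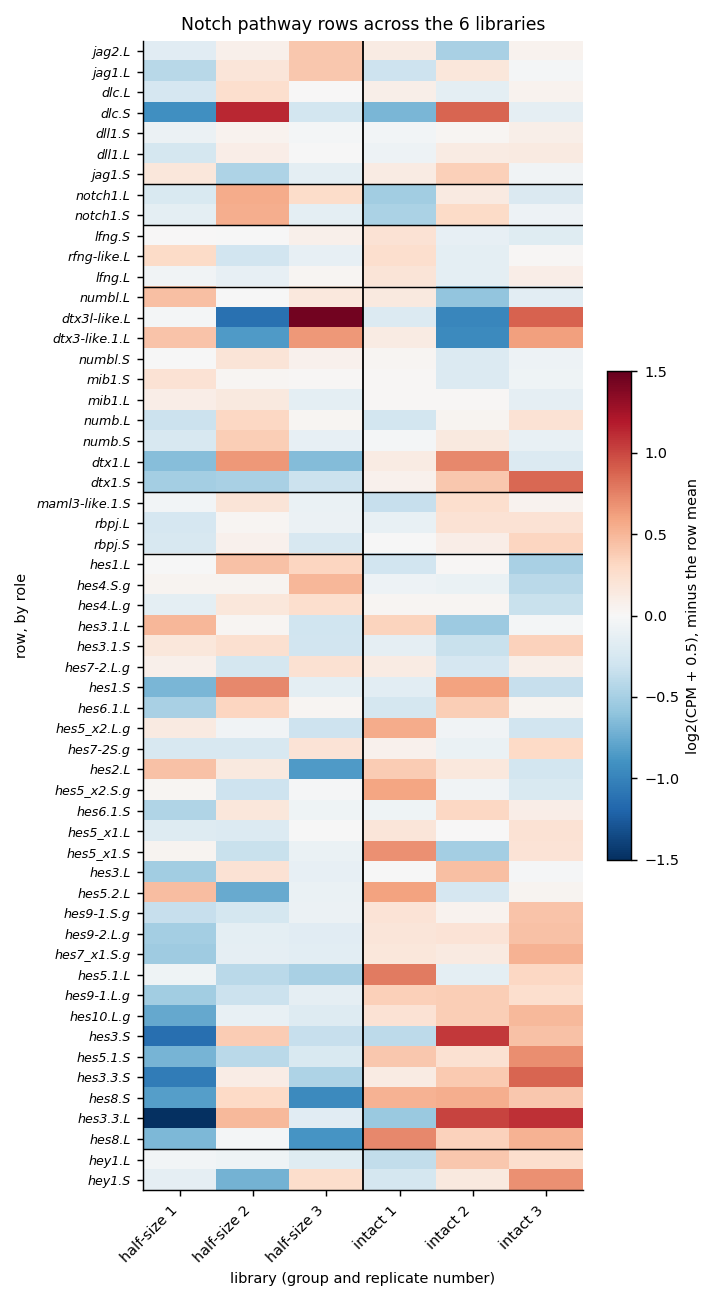
Log2(CPM + 0.5) of each tested Notch pathway row in the 6 libraries, after subtraction of the row's mean (colours beyond ±1.5 are clipped; horizontal lines divide the roles, ligands at the top and hey at the bottom). Within each role, rows are ordered from the highest to the lowest paired log2 fold change, which places falls at the bottom. The lower part of the hes block is therefore mostly blue in half-size and mostly red in intact libraries. There hes3.S and hes3.3.L are red in half-size replicate 2 and blue in intact replicate 1. The row dlc.S is red in both libraries of replicate 2.

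In 39 of 58 member rows the larger share of variance lay between replicate numbers, and in 19 between groups, against 16.4% of all genes with the larger share between groups. The shares were computed from log2(CPM + 0.5). For dlc.S, 97.9% of the variance lay between replicate numbers and 0.0709% between groups, and for hes6.1.L the shares were 95.1% and 2.31%. The opposite held for hes9-1.L.g, with 3.07% between replicate numbers and 88.2% between groups, and for hes5.1.S, with 12.2% and 83.6%. Among hes rows the group took the larger share in 15 of 29, and among the 25 tested rows that were neither hes, hey nor dlc1 in 4. For notch1.L the replicate number took 67.2% and the group 31.4%. Both libraries of replicate 2 were above the other 4 in 9 member rows (20.3% of all genes), those of replicate 1 in 6 (16.9%) and those of replicate 3 in 5 (11.3%).

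**Figure D4:**
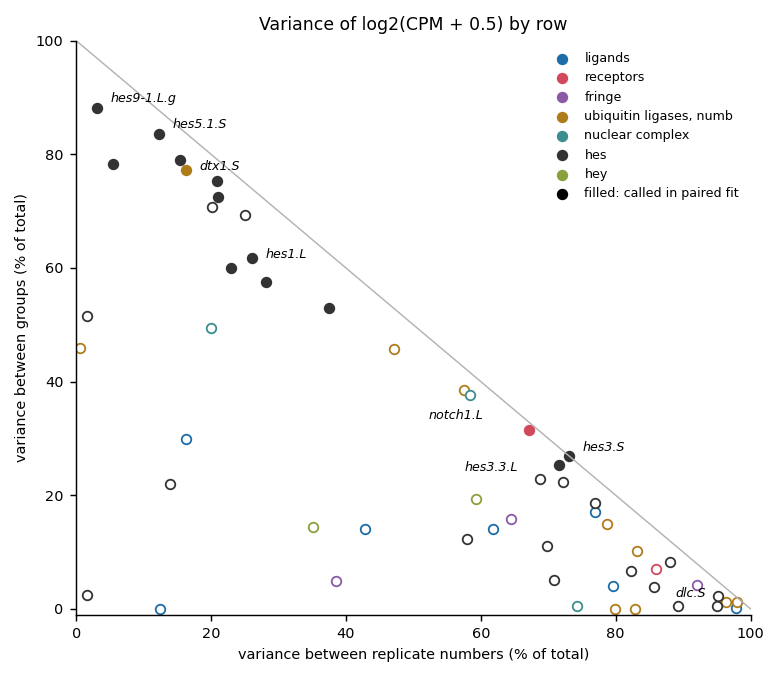
Share of the variance of log2(CPM + 0.5) between replicate numbers (x axis, %) and between groups (y axis, %) for each tested Notch pathway row (colour gives the role; filled points were called in the paired fit; the line marks a sum of 100%). Most called hes rows lie at the upper left, while dlc.S, at 97.9% and 0.0709%, lies at the lower right.

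Both homeologs could be tested for 24 symbols, dlc1 included. Their log2 fold changes had the same sign in 19, both were called in 4 (hes3.3, hes5.1, hes8 and hes9-1), only 1 of the 2 in 4 (dtx1, hes1, hes3 and notch1) and neither in 16. Gene length does not enter the change of an L to S ratio within a library. For hes1 the log2 ratio of L to S counts was 2.66 ± 0.55 in half-size and 2.06 ± 0.29 in intact libraries (SD, n = 3), higher in half-size embryos by 0.86, 0.31 and 0.61 in pairs 1, 2 and 3. For notch1 it was 0.23 ± 0.27 in half-size and -0.00 ± 0.05 in intact libraries (SD, n = 3), with shifts of -0.03, 0.16 and 0.57 by pair. For hes8 the shifts were -0.08, -0.14 and -0.06. These shifts are given without a test, and a call in only one homeolog does not show that the homeologs differed.

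With the counts of L and S rows summed, 8 of 34 symbols tested were called in the paired edgeR fit. The share called over all summed symbols is not given here, so this count cannot be set against it. The genes hes10, hes3.3, hes3, hes5.1, hes8, hes9-1 and hes9-2 fell and notch1 rose, with a log2 fold change of 0.30 ± 0.07 (adjusted p = 0.0373). The sums of hes1 (log2 fold change 0.43 ± 0.12, adjusted p = 0.0598) and dtx1 (-1.03 ± 0.28, adjusted p = 0.0554) were not called.

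Other genes of the relay were read from lists. Of 19 tested rows for proteases and other processing genes, 1 (5.26%) rose and none fell. That share is near the 5.92% called over all genes. The riser was neurl1b.L, of the Neuralized family of ligases that promote ligand endocytosis. It had 16.7, 5.46 and 11.8 CPM in half-size libraries, against 9.56, 2.64 and 5.27 CPM in intact libraries. Each half-size library was above its sibling, while the groups overlapped, since half-size replicate 2 was below intact replicate 1. The log2 fold change was 0.99 ± 0.15 (edgeR adjusted p = 0.00477). The homeolog neurl1b.S had 3.42, 1.85 and 3.02 CPM in half-size libraries, against 4.53, 1.74 and 2.32 CPM in intact libraries. It was not called (log2 fold change -0.00 ± 0.23, edgeR adjusted p = 0.996), so the rise was seen in the L row only. The median of the list was -0.00. The protease rows of adam10 and adam17 were not called, with log2 fold changes between -0.19 and 0.18. Of 19 rows for co-activators and co-repressors, among them ncor1, spen, hdac1 and tle1, 0 were called by paired edgeR or paired DESeq2, with 4 and 2 at an unadjusted p under 0.05 and a median of 0.05.

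Rows of genes that Notch holds back in the neural plate were not called with all libraries in. Of 17 proneural and neuronal rows, 0 passed by paired edgeR or paired DESeq2, with 3 at an unadjusted p under 0.05 in each. Their log2 fold changes ran from -0.28 to 0.90, 9 above 0 and 8 below, with a median of 0.06. Paired edgeR without replicate 1 called 2 as higher. Half-size libraries were above their siblings in all 3 pairs in 5 of the 17 rows, against 21.7% of all genes. They were below in all 3 pairs in 3 rows, against 22.6%. The tested rows named next lie away from the upper end of the range of log2 fold changes. They do not stand for the rows that were higher. The row neurog1.L, of the neurogenin family, had 4.24, 6.31 and 4.42 CPM in half-size libraries, against 4.16, 6.22 and 5.22 CPM in intact libraries. The rows myt1.L and myt1.S, of a zinc finger gene that promotes neurogenesis, had log2 fold changes of -0.19 ± 0.11 and -0.12 ± 0.11. The neuronal differentiation rows neurod1.L and neurod1.S had counts in 1 of 6 libraries each and were not tested.

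The segmentation and paraxial mesoderm list had 3 rises and 1 fall among 33 rows tested, against 1.99% and 3.93% of all genes. Its median was 0.12. Without replicate 1 it had 10 rises and 1 fall, and without replicate 2 it had 1 rise and 1 fall. The retinoic acid synthesis rows aldh1a2.S and aldh1a2.L rose, with log2 fold changes of 0.49 ± 0.08 and 0.36 ± 0.08. Of the brachyury homeologs, t.S rose, at 0.38 ± 0.08, and t.L was not called (0.12 ± 0.08, edgeR adjusted p = 0.409). The calls of aldh1a2.L (edgeR adjusted p = 0.122) and t.S (adjusted p = 0.128) were lost without replicate 2, and that of t.S also without replicate 3 (adjusted p = 0.128). The row dscr6.L, listed in RefSeq under ripply3, fell, with a log2 fold change of -1.38 ± 0.22. The mesp genes, which act with Notch in forming segments, were not called, with log2 fold changes between -0.22 and 0.15.

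Multiciliated cell and ionocyte genes belong to cells whose number Notch limits in the frog epidermis. They fell in 12 of 25 rows and rose in none, against 3.93% and 1.99% of all genes. Their list was chosen with earlier results of these data known, so the count is not independent support. Their median was -0.78. Their summed level was 365, 336 and 323 CPM in half-size libraries, against 469, 460 and 464 CPM in intact libraries. The difference was smallest in pair 2 in 9 of the 12 rows that fell. The same held in 10 of the 11 hes rows that fell and in 4 of the 6 epidermal rows described next. Without the share among all genes that fell, these counts do not show a trait shared by these lists. The row ccno.S had 4.24, 7.41 and 4.98 CPM in half-size libraries, against 15.9, 20.9 and 14.4 CPM in intact libraries, without overlap (log2 fold change -1.64 ± 0.14). The rows ccno.L, foxn4.S and foxi1.L had log2 fold changes of -1.36 ± 0.14, -1.78 ± 0.17 and -1.55 ± 0.16. Paired DESeq2 called 9 of the 25 rows, all lower, and paired edgeR without replicate 3 called 10.

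Markers of the germ layers showed all layers in both groups. Epidermal markers fell in 6 of 6 rows tested (krt12, grhl3 and tp63), against 3.93% of all genes. The planned marker tfap2a is not among those rows. The epidermal markers were chosen with earlier results of these data known, so the count is not independent support. Their summed level was 664, 1071 and 836 CPM in half-size libraries, against 1176, 1695 and 1580 CPM in intact libraries. Paired DESeq2 called 4 of these 6, missed krt12.L (adjusted p = 0.0588) and gave tp63.L no adjusted p. The row tp63.L rests on 0, 11 and 5 counts in half-size and 5, 62 and 9 counts in intact libraries. Its edgeR call was lost without replicate 3 (adjusted p = 0.0786). That of grhl3.L was lost without replicate 1 (edgeR adjusted p = 0.0585) and without replicate 3 (edgeR adjusted p = 0.126). Paired edgeR and paired DESeq2 called 0 of 5 neural plate rows, with 3 at an unadjusted p under 0.05 in each, and 0 of 6 endodermal rows, with 1 in each. Without replicate 1, edgeR called 2 neural plate rows as higher and 1 endodermal row as lower. Of 4 mesodermal rows, t.S rose. Over the whole germ layer list, 1 row rose and 8 fell of 26 tested, against 1.99% and 3.93% of all genes. Among the falls were also the keratin rows krt5.7.L and krt5.7.S (edgeR adjusted p = 0.00256 and 0.0157). That of krt5.7.S was lost without replicate 2 (edgeR adjusted p = 0.114). The neural plate sums were 369, 351 and 302 CPM in half-size libraries, against 369, 294 and 207 CPM in intact libraries. The part that the level of epidermal or multiciliated cell genes had in the hes values was not tested.

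**Figure D5:**
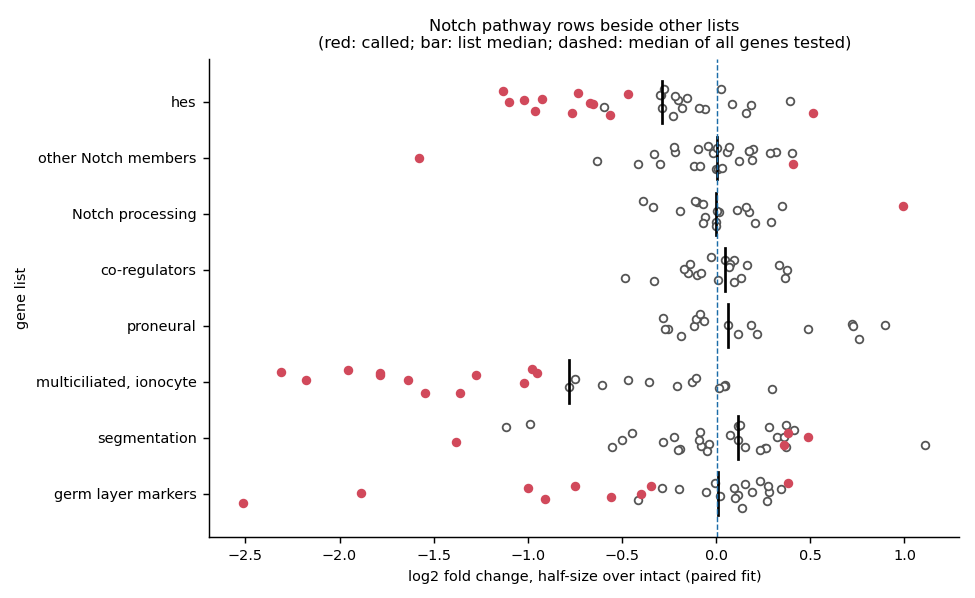
Log2 fold change, half-size over intact, in the paired edgeR fit for hes rows, the other Notch members without dlc1, and 6 other gene lists (each point is a row tested; red points were called; bars are list medians). The hes rows have a median of -0.29 and the multiciliated and ionocyte rows of -0.78, while the other lists have medians between -0.00 and 0.12. The germ layer list, with a median of 0.01, still holds 8 falls among 26 rows, against 3.93% of all genes.

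In the authors' deposited table, 56 of the 67 member rows were listed, 0 with an adjusted p under 0.05 and 6 with a p under 0.05. The shares over all genes of that comparison were not computed, so these counts have no background beside them. In the authors' deposited table the ratio of half-size to intact means was 0.469 for hes8.L, 0.53 for hes5.1.S and 1.43 for hes1.L.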

How the data were processed

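Polyadenylated RNA of whole embryos was sequenced from stranded libraries, per the labels' protocols. The deposited table held raw read counts per gene. The submitters' processing notes name TopHat2, HTSeq and DESeq, without roles. The strand setting of the counting, the genome build and the annotation are not stated there. A second deposited table held the authors' comparison: the ratio of the means, its log2 and p-values. Its direction, half-size over intact, was read from the ratio of the groups' counts.

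Counts were tested with edgeR 4.0.16 (R 4.3.3): filterByExpr with a minimum count of 10, TMM scaling, the two-sided quasi-likelihood test and Benjamini-Hochberg adjustment over all 21673 genes tested. The group was the only term in the first fit, and the replicate number was added as a block in the paired fit. The numbers were taken to pair siblings because the series text calls the groups siblings, both groups carry the same numbers in the labels, and deviations from the group means correlated at 0.75, 0.82 and 0.68 within pairs and between -0.55 and -0.20 otherwise. Deviations within a group cancel out, so positive correlations within pairs force the others to be negative on balance. In the paired fit, p-values set the group difference against the spread left after the replicate block. In the first fit, they set it against the spread between libraries of a group. DESeq2 1.42.0, its size factors, no filter, summed homeologs and left-out libraries were alternatives.

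Members and lists were chosen with earlier results of these data known. Of the list symbols, 11 of 18 (processing), 10 of 19 (co-regulators), 13 of 21 (proneural), 13 of 25 (multiciliated), 17 of 24 (segmentation) and 14 of 19 (germ layers) matched a row. Named were all member rows called in either fit, the homeologs of a fixed set of core genes, hes5 and hes7 rows of at least 10 CPM and up to 4 called rows per list with the smallest p. Other rows were named after their values were seen. RefSeq names matched 41 of the 67 member rows. The edgeR steps were also run on simulated data built with a shared pair component. The outcome is not given here, so that run does not bear on the calls.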

Additional observations from a re-analysis of the deposited data

How the results depend on the processing

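The replicate block decided the calls. Without it edgeR passed 0 genes, 0 Notch members and 0 rows of the other lists, also with each library left out in turn. With the block it called 1283, 14 and 25. With the block and DESeq2's size factors the counts were 1271, 14 and 25, with the block and no filter 2568, 17 and 38, with the block and summed homeologs 1044, 8 and 15, and with the block in DESeq2 1127, 14 and 20. DESeq2 without the block called 51 genes, 0 members and 7 list rows. With the block and replicate 1, 2 or 3 left out, the counts were 1471, 1055 and 507 for all genes, 11, 12 and 4 for members and 36, 21 and 20 for list rows. The cause was not tested. The median log2 fold change of the members ran between -0.16 and -0.07 over all settings, and no called value changed sign. Scaling by DESeq2's size factors moved the median of all genes by 0.01. Depth limits dtx1.S most, with 7 to 34 counts a library.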
